A study of Mus musculus with 3 samples.

Results

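The cell cycle genes described here are 41 genes of DNA replication and cell division, out of 32287 features counted in each library. They were taken as a named list of 18 S phase genes, 22 genes of G2 and M phase, and Stmn1, a microtubule regulator that was assigned to no phase. All 41 were present in the count tables. The rule that defines the list uses no measured value, although the list was drawn up with earlier results of these data known. No cell class below was gated on any of them.

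The 3 libraries were single-cell libraries of lung cells from mice at 4 weeks after bleomycin, a drug that injures the alveolar epithelium. All mice carried Scgb1a1-CreER, Sftpc-DreER and the R26-TLR reporter, so that recombinases driven by a club cell promoter and by an alveolar type 2 (AT2) promoter set 2 colours. Cells with tdTomato formed the Club-Tracer library, cells with ZsGreen the AT2-Tracer library, and cells with both colours the BASC-Tracer library (BASC, bronchioalveolar stem cell). The sources used here do not say how many mice gave each library, all groups received bleomycin, and no uninjured library was used here. With 1 library for each lineage there was no replicate check and no test. All intervals are 95% intervals that cover counting error only, a count of 0 is given with the share or level that 3 counts would make, and differences are described by size.

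Cells that divide copy their DNA in S phase and separate the copies in M phase. Genes of replication licensing and nucleotide supply, such as the Mcm helicase genes, Pcna and Rrm2, are transcribed at entry into S phase through E2F factors. Genes of chromosome condensation, spindle assembly and mitotic exit, such as Top2a, Cdk1 and Cdc20, are transcribed later, in G2 and M, through the CHR element and CCAAT boxes of their promoters. In the lung, AT2 cells are the resident alveolar progenitors, and club cells and BASCs can also give rise to alveolar cells after injury. Alveolar type 1 (AT1) cells, the thin gas exchange cells, are regarded as mostly not dividing, and macrophages can renew themselves in the tissue.

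Promoters of 3 S phase genes and 3 G2 and M genes are shown because these phases are compared throughout. They are the 150 bases before the annotated start, 5′ to 3′ along the gene, from RefSeq (GRCm38.p6, the same assembly as mm10). Capitals mark matches on either strand to CCAAT, to the CHR letters TTTGAA or the variant TTCGAA, and to E2F letters. The E2F letters were TTCCCGC, the variant TTGGCGC, the variant TTCGCGC and the variant TTGCCGC. Matches that overlap run together.
Mcm6 promoter, chr1:128359706-128359855, minus strand: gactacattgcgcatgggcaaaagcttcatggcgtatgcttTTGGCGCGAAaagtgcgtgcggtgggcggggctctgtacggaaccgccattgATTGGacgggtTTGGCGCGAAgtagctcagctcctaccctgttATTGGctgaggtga
Mcm5 promoter, chr8:75109359-75109508, plus strand: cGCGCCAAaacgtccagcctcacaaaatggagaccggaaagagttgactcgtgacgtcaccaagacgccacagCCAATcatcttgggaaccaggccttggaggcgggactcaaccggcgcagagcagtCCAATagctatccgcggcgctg
Rrm1 promoter, chr7:102441545-102441694, plus strand: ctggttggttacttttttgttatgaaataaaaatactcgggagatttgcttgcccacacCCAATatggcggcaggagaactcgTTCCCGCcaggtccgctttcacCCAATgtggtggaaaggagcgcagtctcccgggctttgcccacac
Mki67 promoter, chr7:135716380-135716529, minus strand: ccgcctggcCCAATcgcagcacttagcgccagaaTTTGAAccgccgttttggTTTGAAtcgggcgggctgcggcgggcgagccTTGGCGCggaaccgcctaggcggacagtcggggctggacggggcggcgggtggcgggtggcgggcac
Top2a promoter, chr11:99024190-99024339, minus strand: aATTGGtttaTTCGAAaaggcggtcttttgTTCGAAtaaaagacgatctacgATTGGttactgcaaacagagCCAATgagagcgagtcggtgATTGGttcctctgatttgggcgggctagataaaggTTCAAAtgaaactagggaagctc
Cdc20 promoter, chr4:118437344-118437493, minus strand: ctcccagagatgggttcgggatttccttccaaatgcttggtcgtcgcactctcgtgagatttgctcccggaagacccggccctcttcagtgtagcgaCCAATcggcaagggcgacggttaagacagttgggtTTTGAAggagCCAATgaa

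Among the 34 members with a promoter in that table, the 250 bases before the start were searched. Mcm7, Uhrf1 and Prc1 had 2 windows and counted when either held a match, while the share of all windows takes each singly. The CHR matches of Mcm7 and Prc1 lay in 1 of their windows only. A CHR match was present in 9 of 19 G2 and M genes (47.4%) and in 2 of 15 S phase genes (13.3%), against 17.2% of all 32851 promoter windows of that length. An E2F match was present in 8 of 15 S phase genes (53.3%) and in 3 of 19 G2 and M genes (15.8%), against 7.89% of all windows. CCAAT was found in 17 of 19 G2 and M genes, in 10 of 15 S phase genes and in 33.9% of all windows. The other members, Stmn1, Tpx2, Ccna2, Aurkb, Gins2, Mcm4 and Ccne2, had no entry in that table. A match of letters is a description of the window and not evidence of binding.

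Barcodes with at least 500 genes and at most 15% mitochondrial UMIs were kept, which left 3196 cells in Club-Tracer, 1402 in the BASC-Tracer library and 5859 in AT2-Tracer. Their median depths were 15406, 15222 and 9682 UMIs (unique molecular identifiers, 1 for each captured transcript). Of these cells 3065, 1190 and 3689 were gated as epithelial on 12 genes such as Epcam and Cdh1, and 43, 119 and 1834 as macrophages on 12 genes such as Ptprc and Csf1r. The labels call the sorted cells lung epithelial cells. Macrophage-gated cells made up 31.3% of the AT2-Tracer library. Between 6 and 23 barcodes were shared by each pair of libraries among kept cells. Levels are UMIs of a gene per 1000000 UMIs of the cells (CPM), without length scaling because each transcript is counted once.

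Over the whole epithelium the cell cycle genes stood at nearly the same level in the 3 lineages. The summed level of the 22 G2 and M genes was 221.6 CPM in Club-Tracer, 233.7 CPM in BASC-Tracer and 216.3 CPM in AT2-Tracer epithelial cells. The summed level of the 18 S phase genes was 215.4 CPM, 210.5 CPM and 241.1 CPM in the same order. The widest gap between libraries was therefore 1.08-fold for G2 and M genes (BASC-Tracer over AT2-Tracer, interval 1.05 to 1.12). For S phase genes the ratio of BASC-Tracer to AT2-Tracer was 0.873 (0.845 to 0.901).

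Cells were counted as holding G2 and M genes when they carried at least 3 UMIs of at least 2 of these genes after every cell was thinned to 1500 UMIs. That was so for 65 of 2930 Club-Tracer epithelial cells (2.22%, exact interval 1.72 to 2.82%), 23 of 1081 BASC-Tracer cells (2.13%, 1.35 to 3.18%) and 77 of 3482 AT2-Tracer cells (2.21%, 1.75 to 2.76%). The 3 intervals overlapped almost entirely. Without thinning the shares were 10.1%, 11.6% and 8.65%. By the same rule on S phase genes, 45, 18 and 44 epithelial cells held S phase genes, and 21, 2 and 14 cells held both sets.

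Gene by gene, no member was 2-fold apart between any pair of libraries over the whole epithelium. A gene was compared when it reached 5 CPM and 30 UMIs in the higher library, and counted as apart at 2-fold on CPM + 1. A gene that reached this on 1 side only could be called in 1 direction only, here and in the comparisons below. Of 31 members compared between AT2-Tracer and Club-Tracer, 0 were apart, while 10.3% of all 10634 genes compared were higher and 8.26% were lower in AT2-Tracer. Of 30 members compared between BASC-Tracer and Club-Tracer, 0 were apart, against 3.00% higher and 1.39% lower of all genes. Of 30 compared between BASC-Tracer and AT2-Tracer, 0 were apart, against 5.62% and 2.47%. The median member ratio was -0.01 (log2) in AT2-Tracer over Club-Tracer, where the median of all genes was 0.34. After scaling by that median gene, 574 genes were higher and 1126 lower, in place of 1092 and 878. Among the members, Pclaf at -1.24 and Kif23 at -1.07 were 2-fold lower in AT2-Tracer. In BASC-Tracer over Club-Tracer, where the median gene was 0.25, Rrm2 at -1.06 was lower after the same scaling.

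**Figure D1:**
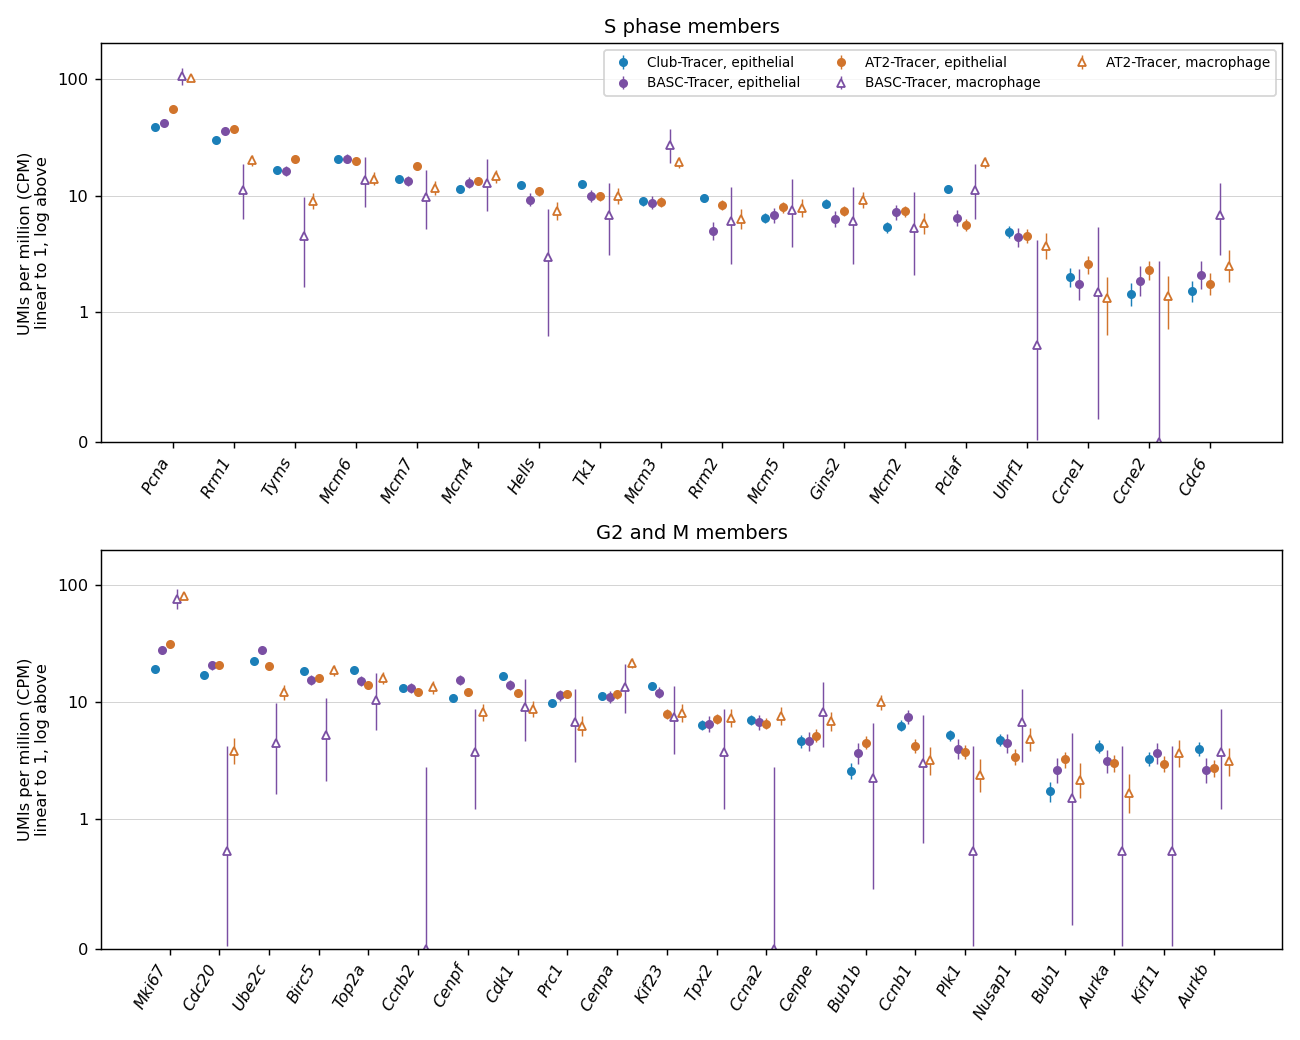
Level of each S phase member (top) and G2 and M member (bottom) in CPM (vertical axis, linear to 1 and logarithmic above). Filled circles are epithelial cells of the 3 libraries, open triangles are macrophages of the BASC-Tracer and AT2-Tracer libraries, and bars are 95% counting intervals. Epithelial circles of a gene lie close together, while the macrophage triangles lie far above them for Mki67 and far below for Cdc20.

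The S phase genes read highest in epithelial cells were Pcna, Rrm1, Tyms, Mcm6 and Mcm7. Pcna, the sliding clamp of DNA polymerase, read 38.8 CPM in Club-Tracer, 42.0 in BASC-Tracer and 55.0 in AT2-Tracer epithelial cells. Rrm1, the large subunit of ribonucleotide reductase, read 29.9, 35.8 and 37.3 CPM in the same order. Both were lowest in Club-Tracer cells. Tyms, thymidylate synthase, read 16.4, 16.1 and 20.7 CPM. Mcm6 and Mcm7 belong to the replicative helicase. Mcm6 read 20.6, 20.7 and 19.7 CPM, with overlapping intervals, and Mcm7 read 13.8, 13.3 and 17.8 CPM.

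Among the G2 and M genes the 5 with the highest levels were Mki67, Ube2c, Cdc20, Birc5 and Top2a. Mki67, which coats mitotic chromosomes and is the common marker of dividing cells, read 19.0 CPM in Club-Tracer, 27.8 in BASC-Tracer and 31.1 in AT2-Tracer epithelial cells. Top2a, the topoisomerase that untangles sister chromatids, ran the other way at 18.9, 15.1 and 14.0 CPM. The intervals of Club-Tracer and AT2-Tracer did not overlap for either gene. Birc5, a subunit of the chromosomal passenger complex, read 18.4, 15.5 and 15.95 CPM. Ube2c and Cdc20 both serve the anaphase-promoting complex, the first as its ubiquitin-conjugating enzyme and the second as its activator. Ube2c read 22.3, 27.8 and 20.2 CPM and Cdc20 read 17.2, 20.7 and 20.6 CPM. Stmn1, the member with no phase, read 61.1, 63.8 and 90.7 CPM.

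The remaining members were lower. In AT2-Tracer epithelial cells the other 13 S phase genes ranged from 1.75 CPM (Cdc6, a licensing factor) to 13.2 CPM (Mcm4), and the other 17 G2 and M genes from 2.71 CPM (Aurkb, the passenger complex kinase) to 12.3 CPM (Ccnb2, cyclin B2). Members under 5 CPM in both Club-Tracer and AT2-Tracer, which were not compared between them, were Ccne1, Ccne2, Cdc6, Uhrf1, Aurka, Aurkb, Bub1, Bub1b, Kif11 and Nusap1.

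The even level over the epithelium hid differences between cell classes that ran in opposite directions in different lineages. In the Club-Tracer library G2 and M genes were highest in cells gated as transitional, the Krt8-high state between AT2 and AT1 cells, and lower in AT2-gated cells. In the BASC-Tracer and AT2-Tracer libraries they were higher in AT2-gated than in transitional-gated cells. AT1-gated cells held almost none in any library. Each class was cut from a score over 10 to 12 marker genes (transitional genes included Krt8, Cldn4 and Sfn). It is a range and not a type, and from 11.7% of epithelial cells (AT2-Tracer) to 15.6% (BASC-Tracer) lay within 0.05 of the cut.

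In Club-Tracer cells, 9 of 187 transitional-gated cells (4.81%, 2.22 to 8.94%) and 11 of 469 AT2-gated cells (2.35%, 1.18 to 4.16%) held G2 and M genes. In AT2-Tracer cells it was 8 of 611 transitional-gated cells (1.31%, 0.567 to 2.56%) and 65 of 1693 AT2-gated cells (3.84%, 2.98 to 4.87%). In BASC-Tracer cells it was 1 of 135 transitional-gated cells (0.741%, 0.0188 to 4.06%) and 15 of 362 AT2-gated cells (4.14%, 2.34 to 6.74%). The intervals of the 2 classes did not overlap in AT2-Tracer and overlapped in Club-Tracer and BASC-Tracer. The order was the same in 16 of 16 settings in every library, the reported setting among them. One setting left out the 10 most abundant genes, among them Scgb1a1 and Sftpc, before thinning. The settings draw on largely the same cells, so they do not reduce the counting error given above.

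**Figure D2:**
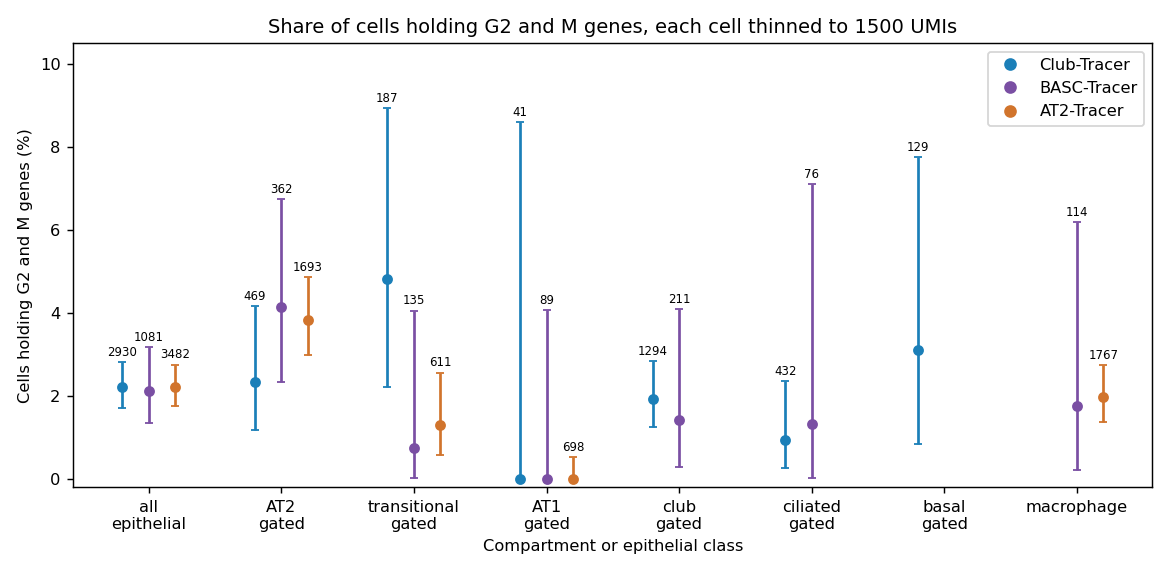
Percentage of cells that held G2 and M genes after thinning to 1500 UMIs (vertical axis) in all epithelial cells, in each epithelial class and in macrophages (horizontal axis), by library. Points are shares, bars exact 95% intervals and numbers the cells counted, and the AT2-gated and transitional-gated points change order between the Club-Tracer library (2.35% and 4.81%) and the AT2-Tracer library (3.84% and 1.31%).

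In Club-Tracer, basal-gated cells lay between the AT2-gated and transitional-gated shares, and club-gated and ciliated-gated cells below both. Of 1294 club-gated Club-Tracer cells 25 held G2 and M genes (1.93%, 1.25 to 2.84%), as did 3 of 211 club-gated BASC-Tracer cells (1.42%, 0.294 to 4.10%). Of 129 basal-gated Club-Tracer cells 4 did (3.10%, 0.851 to 7.75%). Ciliated-gated cells gave 4 of 432 in Club-Tracer (0.926%, 0.253 to 2.35%) and 1 of 76 in BASC-Tracer (1.32%, 0.0333 to 7.11%).

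No AT1-gated cell held G2 and M genes. In AT2-Tracer it was 0 of 698 cells, which allows a share of up to 0.430%, in BASC-Tracer 0 of 89 (up to 3.37%) and in Club-Tracer 0 of 41 (up to 7.32%). AT1-gated cells were shallow, with a median of 5031 UMIs in AT2-Tracer against 15973 for AT2-gated cells. Their summed G2 and M level was 16.6 CPM (13.3 to 20.4) in AT2-Tracer, against 265.6 CPM in AT2-gated cells. The S phase genes did not fall alike. Their sum was 150.3 CPM in AT1-gated cells against 243.8 CPM in AT2-gated cells. Rrm1 read 45.1 CPM in AT1-gated and 32.7 CPM in AT2-gated cells, and Pcna 41.7 and 54.4 CPM. By contrast Rrm2, the small subunit of ribonucleotide reductase, read 0.377 and 11.0 CPM, and Pclaf, a Pcna partner, 0.566 and 6.72 CPM.

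Transitional-gated cells differed between Club-Tracer and AT2-Tracer in 28 of 36 members compared, all of them lower in AT2-Tracer. Their summed G2 and M level was 600.0 CPM in Club-Tracer and 168.4 CPM in AT2-Tracer, a ratio of 0.281 for AT2-Tracer over Club-Tracer (0.264 to 0.298). BASC-Tracer stood at 186.2 CPM, near AT2-Tracer. The S phase sum was 573.8 CPM in Club-Tracer and 285.7 CPM in AT2-Tracer, a ratio of 0.498 (0.471 to 0.526), and 317.6 CPM in BASC-Tracer. Of 20 G2 and M genes compared, 20 were at least 2-fold lower in AT2-Tracer, with a median log2 ratio of -1.69. Of 15 S phase genes compared, 8 were, with a median of -1.04. Members under 5 CPM in AT2-Tracer, such as Aurkb, Kif11 and Pclaf, were compared only through Club-Tracer and could not be called higher. The sums use no such filter. Over all 10203 genes compared, 5.44% were lower and 5.38% were higher, and the median was 0.14. After scaling by it, 20 G2 and M and 10 S phase genes were lower, beside 645 lower and 411 higher genes in place of 555 and 549.

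The extremes came from both phases. Pclaf read 45.0 CPM in Club-Tracer, 5.42 in BASC-Tracer and 4.98 in AT2-Tracer transitional-gated cells, a ratio of 0.111 for AT2-Tracer over Club-Tracer (0.0798 to 0.152). Only the Club-Tracer library was high for this gene. Mki67 read 66.3, 16.8 and 20.9 CPM in the same order, and the ratio was 0.315 (0.262 to 0.378). Aurkb, the kinase of the passenger complex, read 10.8, 3.14 and 2.11 CPM. Kif11, the motor that pushes spindle poles apart, read 15.5, 1.43 and 3.06 CPM, and Top2a read 55.5, 11.4 and 11.6 CPM. Each of these was highest in Club-Tracer. Pcna was the least different S phase gene of those named above at 75.2, 61.9 and 63.4 CPM.

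Each of the other 16 G2 and M genes compared had a ratio of AT2-Tracer to Club-Tracer between 0.205 (Plk1, a mitotic kinase) and 0.432 (Tpx2, a spindle assembly factor). The lower S phase genes other than Pclaf were Rrm2 (0.240), Hells (0.252), Tk1 (0.292), Uhrf1 (0.352), Mcm3 (0.374), Mcm5 (0.382) and Gins2 (0.463). They supply nucleotides, open chromatin, maintain DNA methylation or belong to the replicative helicase.

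The transitional-gated cells of these libraries were not alike in the markers of other classes. Their summed transitional markers were 17397 CPM in Club-Tracer and 17349 CPM in AT2-Tracer. The summed club markers were 19921 CPM and 408.7 CPM, and the median scaled club score was 0.310 and 0.0149, against 0.760 and 0.754 for the transitional score. The part of these markers in the result was not tested. Only 38 of 188 Club-Tracer transitional-gated cells held G2 and M genes on unthinned counts (at least 5 UMIs of at least 3 genes), and 29 of 625 in AT2-Tracer.

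AT2-gated cells went the other way and by less. The summed G2 and M level was 170.1 CPM in Club-Tracer, 314.2 CPM in BASC-Tracer and 265.6 CPM in AT2-Tracer. AT2-Tracer over Club-Tracer gave 1.56 (1.49 to 1.64). Of 15 G2 and M genes compared 3 were at least 2-fold higher in AT2-Tracer and none was lower, with a median log2 ratio of 0.58. Of all 9767 genes compared 4.03% were higher and 2.89% were lower, with a median of 0.16. After scaling by it, 291 genes were higher and 342 lower, in place of 394 and 282. The 3 genes were Mki67 (15.7 CPM in Club-Tracer, 40.6 in BASC-Tracer, 42.1 in AT2-Tracer), Ube2c (10.9, 39.1 and 22.9 CPM) and Cenpe, a kinetochore motor (2.17, 6.26 and 5.72 CPM). Cenpe was compared only through its AT2-Tracer level and could not be called lower. Scaled by the median gene, only Mki67 was still 2-fold higher, at 1.21 (log2). Of 15 S phase genes compared none was 2-fold apart, and their sums were 208.2, 221.0 and 243.8 CPM. Summed club markers in AT2-gated cells were 49765, 13061 and 2346 CPM in the same order, and their part in the result was not tested.

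**Figure D3:**
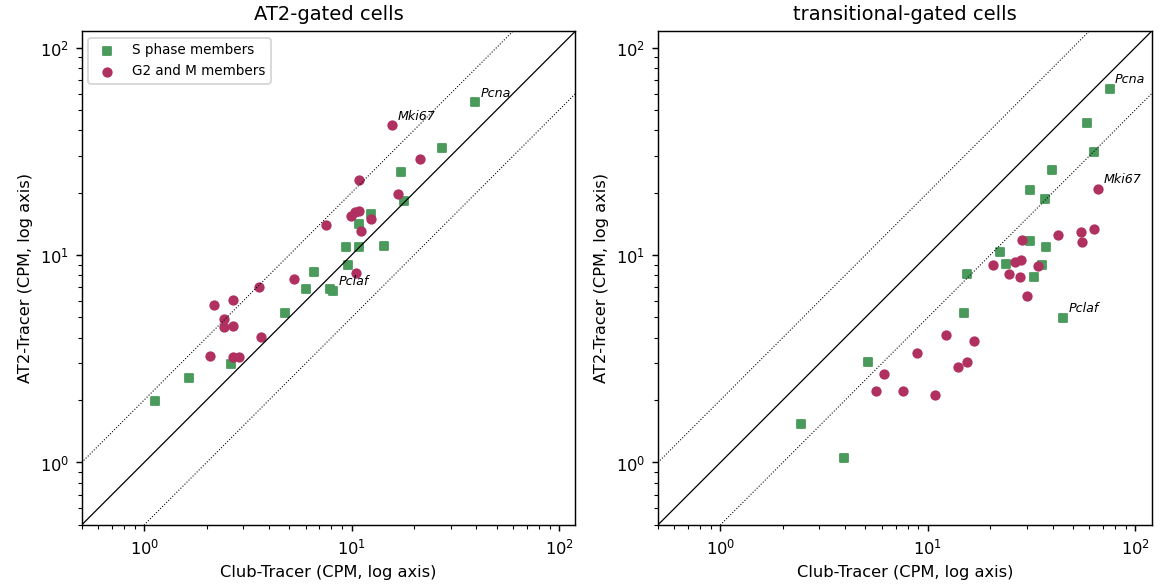
Level of each member in the Club-Tracer library (horizontal axis) against the AT2-Tracer library (vertical axis), both in CPM on log axes, for AT2-gated cells (left) and transitional-gated cells (right). The solid line marks equal levels and the dotted lines 2-fold. G2 and M members (circles) lie mostly above the line at left and all compared ones lie below the lower dotted line at right. S phase members (squares) lie mostly nearer the line at left. At right they range from near it (Pcna) to Pclaf, the compared member farthest below it.

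In AT2-Tracer macrophages both lists summed to slightly more than in epithelial cells, with Mki67 and Pclaf higher and Cdc20 and Tyms lower. In BASC-Tracer macrophages the S phase sum was higher and the G2 and M sum lower. Of 1767 AT2-Tracer macrophages 35 held G2 and M genes (1.98%, 1.38 to 2.74%), and 2 of 114 did in BASC-Tracer (1.75%, 0.213 to 6.19%). Their summed G2 and M level was 250.4 CPM in AT2-Tracer macrophages against 216.3 CPM in epithelial cells of that library. Without Mki67 it was 169.7 CPM against 185.1 CPM. In BASC-Tracer it was 169.5 CPM against 233.7 CPM, and without Mki67 93.0 CPM against 205.9 CPM. Summed S phase levels were 263.6 CPM and 241.1 CPM in AT2-Tracer, and 237.8 CPM and 210.5 CPM in BASC-Tracer. The S phase list as a whole was not higher in both. Its median member read 9.11 against 8.60 CPM in AT2-Tracer and 6.75 against 7.96 CPM in BASC-Tracer. In BASC-Tracer the gap in Pcna, given below, was wider than the gap between the S phase sums.

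Of 30 members compared in AT2-Tracer, 3 were at least 2-fold higher in macrophages and 2 were lower. Over all 10879 genes 15.5% were higher and 27.5% were lower (2174 and 2092 genes after scaling by the median gene, in place of 1683 and 2988). The median log2 ratio of all genes was -0.41, and that of the members 0.02. Mki67 read 80.7 CPM in macrophages and 31.1 CPM in epithelial cells, a ratio of 2.59 (2.41 to 2.79). Pclaf read 19.3 and 5.58 CPM (3.46, 2.93 to 4.07), and Mcm3, a helicase subunit, 19.2 and 8.83 CPM (2.17, 1.87 to 2.51). Cdc20 was the lowest, at 3.83 CPM against 20.6 CPM (0.186, 0.142 to 0.240), followed by Tyms at 9.05 CPM against 20.7 CPM (0.437). Relative to the median gene, Pcna (1.27, log2), Cenpa, the centromeric histone (1.25), and Bub1b, a spindle checkpoint kinase (1.40), were also higher, and Tyms was no longer 2-fold lower.

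In BASC-Tracer, with 119 macrophages, 3 of 25 members compared were higher and 10 were lower, against 14.9% and 30.4% of all genes. The macrophages held 1333184 UMIs and the epithelial cells 26199579. The floor of 30 UMIs therefore asked for a higher CPM of genes higher in macrophages than of genes lower in them. This tilted the counts toward lower, for members and for all genes alike. After scaling by the median gene (-0.43, log2), 3 members were higher and 7 lower, and 1963 and 2199 genes in place of 1461 and 2987. Mki67 (76.5 against 27.8 CPM) and Mcm3 (27.0 against 8.70 CPM) were again higher, and Cdc20 (0.750 against 20.7 CPM) and Tyms (4.501 against 16.1 CPM) again lower. Pcna was the third higher gene, at 104.3 against 42.0 CPM. The other lower members were Rrm1, Hells, Birc5, Ccnb1, Ccnb2, Ccna2, Ube2c and Cenpf. Ccnb2 and Ccna2, cyclins B2 and A2, had no UMI there, which allows up to 2.25 CPM. Club-Tracer held only 43 macrophages, which is too few for a comparison.

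Mki67 also lay in other cells than the rest of its list. For each member, cells were chosen as holding at least 5 UMIs of at least 3 of the other G2 and M genes, and the share of the member's UMIs in those cells was taken. In AT2-Tracer epithelial cells 81.0% of 1561 Mki67 UMIs (79.0 to 83.0%) lay in the 178 cells so chosen. In macrophages it was 33.9% of 1347 UMIs (31.3 to 36.4%), in 70 chosen cells. An Mki67 UMI was seen in 545 of 1834 macrophages, of which 65 were among the chosen cells. Of the macrophages not chosen 27.2% had one, against 6.15% of the epithelial cells not chosen. In AT1-gated cells of the same library, with no cell holding G2 and M genes, 1.89% of cells had an Mki67 UMI at a median depth of 5031 UMIs, against 7964 in macrophages holding none.

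Most G2 and M genes kept to the chosen cells in both compartments. Over the 22 genes the median share was 80.5% in AT2-Tracer macrophages and 85.8% in epithelial cells. Birc5 was at 89.1% and 89.9%, Ccna2 at 98.4% and 93.9% and Top2a at 82.8% and 85.2%. Besides Mki67, Bub1b (27.1% and 44.7%) and Cenpa (57.2% and 91.4%) were spread more widely in macrophages. Cells holding G2 and M genes on unthinned counts made up only 4.58% of macrophages and 5.39% of epithelial cells, and were deeper than the rest. S phase genes lay in the chosen cells to a smaller share than G2 and M genes in both, with medians of 43.5% and 39.2%. Pcna was lowest, at 17.2% and 21.1%, and Pclaf was highest, at 90.1% and 91.8%. In BASC-Tracer macrophages 19.6% of 102 Mki67 UMIs lay in chosen cells, of which there were only 2.

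**Figure D4:**
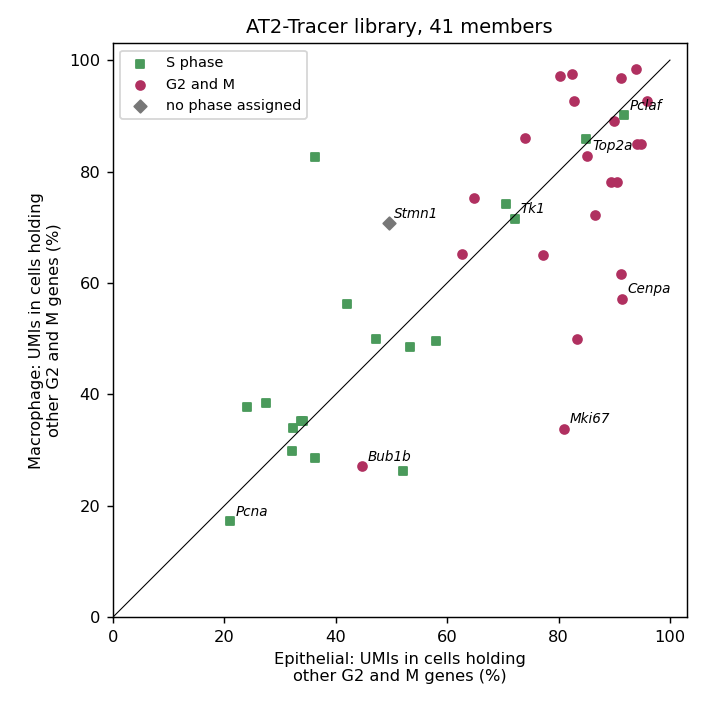
Share of each member's UMIs that lay in cells holding other G2 and M genes, in AT2-Tracer epithelial cells (horizontal axis, percent) and macrophages (vertical axis, percent), with 1 point per member. The line marks equal shares. Mki67 lies far below it, at 81.0% and 33.9%, while most G2 and M members lie above 60% on both axes and most S phase members under 60%.

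Other cell cycle lists were read against the same shares of all genes, 15.5% higher and 27.5% lower in AT2-Tracer macrophages. Of 8 cyclins and kinases of G1, all compared in AT2-Tracer, 2 were at least 2-fold higher in macrophages and 3 were lower, and after scaling by the median gene 2 were higher and 1 was lower. Cdk6 read 50.6 CPM in macrophages and 7.24 CPM in epithelial cells, and cyclin D2 (Ccnd2) 59.7 and 26.8 CPM. Cyclin D1 (Ccnd1) read 19.4 and 458.6 CPM, and the phosphatase gene Cdc25a 5.81 and 13.7 CPM. Of 12 inhibitors 1 was higher and 4 were lower, also after scaling. These lists are small and their counts lie near the shares of all genes. The higher one was Rb1, the retinoblastoma gene, at 37.2 against 17.9 CPM. Its relative Rbl1 read 11.6 against 8.85 CPM. Cdkn2b read 2.88 against 94.8 CPM and Cdkn1c 2.22 against 29.6 CPM.

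Of 6 transcription and licensing genes compared, 2 were higher and 1 was lower (3 and 1 after scaling). E2f1, the S phase transcription factor, read 16.4 against 5.94 CPM and Cdt1, its licensing target, 13.3 against 5.403 CPM. Cdc25b read 5.39 against 19.9 CPM, and E2f3 7.37 against 8.53 CPM. Of 10 p53 targets none was higher and 7 were lower, with a median log2 ratio of -1.80, and 6 were lower after scaling. Trp53inp1 read 10.4 against 71.5 CPM and Eda2r 0.120 against 5.68 CPM, while Mdm2 read 95.0 against 99.8 CPM and Cdkn1a 660.3 against 925.7 CPM.

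Of 16 other S phase genes compared none was higher and 2 were lower, Cdca7 (1.92 against 5.30 CPM) and Orc6 (9.65 against 23.95 CPM). Atad2 (21.8 against 12.5 CPM) and Pola1 (7.31 against 4.11 CPM) had the highest ratios, and scaled by the median gene these 2 were higher and none of the 16 was lower. Of 22 other G2 and M genes compared 2 were higher and 6 were lower (2 and 3 after scaling). Gas2l3, which links actin and microtubules in cytokinesis, read 32.4 against 2.07 CPM, and Ckap2l, a spindle protein, 36.4 against 2.87 CPM. Psrc1 (2.82 against 25.2 CPM) and Cbx5 (12.2 against 61.7 CPM) had the lowest ratios.

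Within each class examined, cells holding G2 and M genes on unthinned counts were also high in S phase genes. The p53 targets were lower in them in transitional-gated cells and, for fewer genes, in AT2-gated cells and Club-Tracer club-gated cells, and not in macrophages. The G2 and M members chose these cells and are not counted. List counts here are out of every gene of a list, also those with few UMIs. The shares of genes in general cover only the genes that were compared, so the filters are not alike. In AT2-Tracer, 157 AT2-gated cells were set against the other 1584. All 18 S phase members were at least 2-fold higher, with a median log2 ratio of 2.30, beside 468 of 9903 genes in general (4.73%), with a median of 0.06. In the other direction 1.12% of genes were lower. Pclaf read 49.0 against 0.359 CPM and Rrm2 74.0 against 1.52 CPM, while Pcna read 118.5 against 44.8 CPM. Of 12 transcription and licensing genes 9 were higher, among them Foxm1, the activator of G2 and M genes, at 34.7 against 1.08 CPM. The cells with G2 and M genes were deeper, with a median of 21563 against 15509 UMIs.

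The p53 targets ran against this, and Cdkn1a, which encodes the inhibitor p21, belongs to both the inhibitor and the p53 list. In the same AT2-gated cells 4 of 10 were at least 2-fold lower and none was higher, with a median of -0.64. Cdkn1a read 276.2 against 646.4 CPM (ratio 0.427, 0.401 to 0.455) and Trp53inp1 19.4 against 51.2 CPM. In AT2-gated cells of BASC-Tracer (53 against 328) 3 of 10 were lower and none was higher, with a median of -0.47, beside 2.70% lower and 3.43% higher of all genes. Cdkn1a read 232.4 against 526.0 CPM. In those of Club-Tracer (47 against 432) only 1 of 10 was lower and none was higher, with a median of -0.18, beside 2.34% lower and 4.14% higher of all genes. Cdkn1a read 211.4 against 373.5 CPM. Cdkn1a thus read lower in the AT2-gated cells with G2 and M genes in all 3 libraries. The genes named here were picked from their lists after their values were seen. In club-gated cells of Club-Tracer (48 against 1318) 4 of 10 p53 targets were lower and none was higher, with a median of -0.53. Beside them 197 of 9565 genes were lower and 1298 were higher, with a median of 0.39. Median depths were 34566 against 17543 UMIs in these club-gated cells. In AT2-gated cells they were 38140 against 24594 UMIs in BASC-Tracer and 30905 against 23519 UMIs in Club-Tracer. The part of depth in these values was not tested.

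The gap was wider in transitional-gated cells than in AT2-gated cells. In Club-Tracer, 38 cells against 150, 7 of 10 p53 targets were lower, with a median of -1.16, and Cdkn1a read 214.7 against 1168 CPM. Over all 8348 genes 12.8% were lower and 4.00% were higher, with a median of -0.24. In AT2-Tracer, 29 cells against 596, 7 of 10 were lower, with a median of -1.57, and Cdkn1a read 413.9 against 1741 CPM. Over all 10235 genes 10.4% were lower and 2.95% were higher, with a median of -0.19. Markers of other cells moved along with these values. In AT2-Tracer 8 of 12 macrophage markers were at least 2-fold lower, with a median of -1.55, and 6 of 12 club markers, with a median of -0.96. There 6 of 12 AT2 markers were higher, and Sftpc read 13996 against 3731 CPM. In Club-Tracer 5 of 12 club markers (median -0.73) and 3 of 12 macrophage markers (median -0.45) were lower, and 1 of 12 AT2 markers was higher. The cells with G2 and M genes were also deeper, with a median of 38482 against 15184 UMIs in Club-Tracer and 34363 against 14276 UMIs in AT2-Tracer. That depth gap was wider than in the AT2-gated cells. The part of these markers and of depth in the p53 values was not tested.

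AT2-Tracer macrophages did not show it. In 84 cells against 1750, 18 of 18 S phase members were higher, with a median of 2.80, and 0 of 10 p53 targets were 2-fold apart, with a median of 0.34. Cdkn1a read 579.4 against 666.9 CPM there. Over all 9511 genes 6.53% were higher and 4.04% were lower, with a median of 0.11. Median depths were 13729 against 7964 UMIs. The difference between macrophages and epithelial cells in this respect was not tested.

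In ciliated-gated cells some G2 and M genes read higher and others lower than in club-gated cells. In Club-Tracer their summed G2 and M level was 172.7 CPM, against 164.4 CPM in club-gated cells, so the sums hid the difference. Of 32 members compared 4 were at least 2-fold higher and 7 were lower, against 45.4% and 4.92% of all genes. The median gene was 0.90 (log2) higher in ciliated-gated cells, and scaled by it none of the members was higher and 14 were lower, beside 2161 higher and 1501 lower genes in place of 5024 and 545. Top2a read 34.7 CPM in ciliated-gated and 12.2 CPM in club-gated cells, cyclin B1 (Ccnb1) 11.3 and 4.33 CPM, and Cdc20 22.98 and 10.8 CPM. Uhrf1, of the S phase list, read 7.89 and 2.15 CPM. Mki67 read 4.12 and 13.6 CPM, Ube2c 3.26 and 23.3 CPM, Birc5 2.74 and 11.7 CPM, Ccna2 0.514 and 5.03 CPM, Pclaf 2.57 and 8.18 CPM and Tk1 2.92 and 7.76 CPM. Nusap1, a spindle protein, had no UMI in ciliated-gated cells, which allows up to 0.515 CPM, and read 5.27 CPM in club-gated cells.

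A similar mixture was seen among cells that held G2 and M genes on unthinned counts. These cells were chosen on that list and are set against other epithelial cells in place of club-gated cells, so the G2 and M levels in them are a description. In Club-Tracer these were 24 ciliated-gated and 179 other epithelial cells. No share of all genes was taken for this comparison, so its counts of members, also of S phase members below, stand alone. Of 22 G2 and M genes 5 read higher and 17 lower in the first group, the ciliated-gated cells. Top2a read 225.3 CPM (193.4 to 260.9) in the first and 129.7 CPM in the second, Cdc20 156.9 and 113.5 CPM, and Aurka, a centrosome kinase, 45.6 and 27.8 CPM. Cdk1, the mitotic kinase, read 150.6 and 128.4 CPM, a ratio whose interval reached below 1. Mki67 read 19.0 and 160.7 CPM, Birc5 19.0 and 168.6 CPM, Ube2c 15.2 and 202.1 CPM and Ccna2 3.80 and 62.5 CPM. Nusap1 was at 0 UMIs, which allows up to 3.80 CPM, and at 42.7 CPM in the others. Top2a and Cdk1 were each seen in 21 of the 24 cells and Mki67 in 8.

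Of the 18 S phase genes 16 read lower in the same ciliated-gated cells, 12 of them with a ratio interval below 1. Rrm1 read higher, at 126.6 CPM against 100.3 CPM (ratio 1.26, 1.01 to 1.56). Ccne1, cyclin E1, rested on 9 UMIs, at 11.4 against 9.79 CPM (ratio 1.16, 0.508 to 2.36). Tk1, thymidine kinase, read 2.53 and 97.9 CPM, Pclaf 6.33 and 99.7 CPM and Mcm5 2.53 and 42.5 CPM. No ciliated-gated cell held S phase genes after thinning, in 432 cells of Club-Tracer, which allows a share of up to 0.694%. Of the same cells 4 held G2 and M genes. The exact intervals, 0 to 0.850% and 0.253 to 2.35%, overlapped. In the promoters shown above, Mki67, Top2a and Cdc20 all carry CHR and CCAAT letters, and of these only Mki67 carries E2F letters. Mki67 read lower in these ciliated-gated cells than in the other epithelial cells, and Top2a and Cdc20 read higher. Other G2 and M genes ran the other way. Cdk1 and Ccnb1 also carry E2F letters in the 250 bases searched. They read higher in the ciliated-gated cells, Cdk1 at 150.6 against 128.4 CPM and Ccnb1 at 82.3 against 48.8 CPM. Birc5, Ube2c and Nusap1 carry no E2F letters there and read lower. The part of promoter letters in these levels was not tested.

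**Figure D5:**
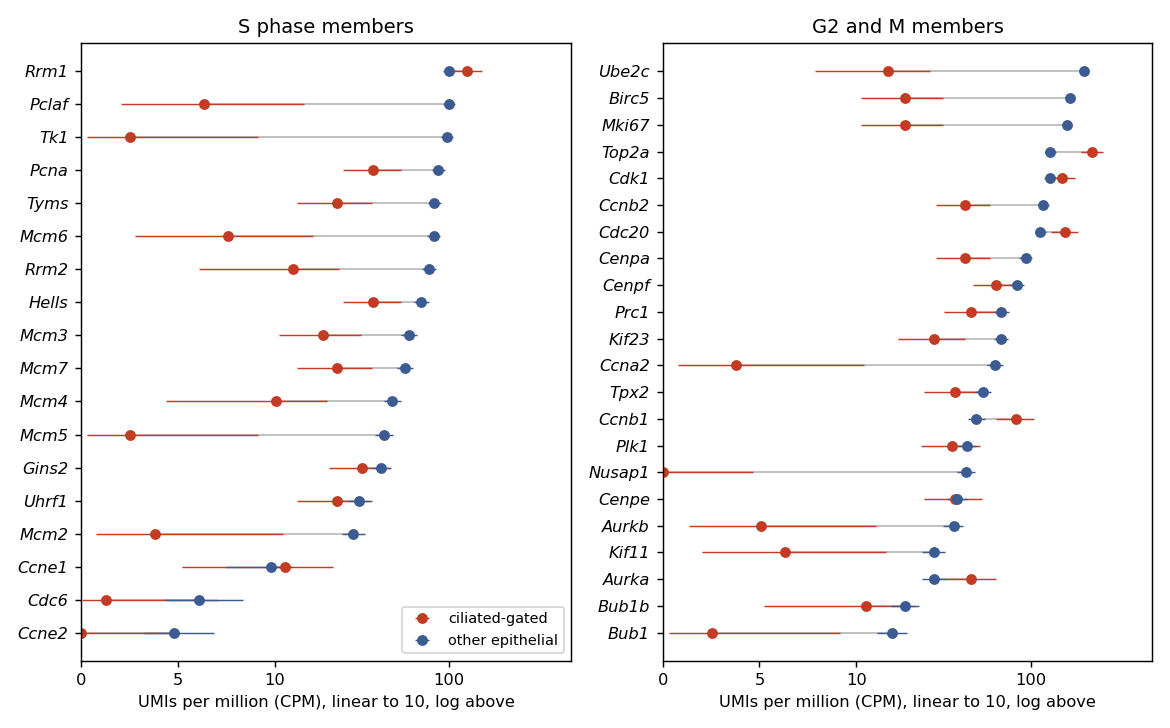
Level of each S phase member (left) and G2 and M member (right) in CPM (horizontal axis, linear to 10 and logarithmic above) in the 24 ciliated-gated and 179 other epithelial Club-Tracer cells that held G2 and M genes. Points are levels and bars 95% counting intervals. Top2a, Cdk1, Cdc20, Ccnb1 and Aurka lie as high or higher in ciliated-gated cells, while Mki67, Birc5, Ube2c, Ccna2 and Nusap1 lie far lower.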

How the data were processed

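The deposited files hold UMI counts per gene and barcode for 3 libraries, made with Cell Ranger 6.1.1 against mm10, per the submitters' processing notes. The annotation release and any doublet removal are not given in the sources used here. Barcodes with at least 500 genes and at most 15% mitochondrial UMIs were kept. A compartment needed at least 3 UMIs of at least 2 of its markers and 3 times the level of the next list. An epithelial class needed a scaled score of at least 0.4 and a gap of 0.1 to the next class. Cells with the highest Scrublet scores stayed in, and leaving them out was an alternative. Counts were summed by library and class and expressed as CPM. The 8 comparisons used a pseudocount of 1 CPM, a floor of 5 CPM and 30 UMIs, and a 2-fold limit. Intervals are exact Poisson, Clopper-Pearson or conditional binomial intervals at 95%, and a count of 0 was read as up to 3 counts. UMI counts within 1 library share cells and capture, so these intervals do not cover variation between mice. The comparison step was tested on simulated data.

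The members and all gene lists were chosen with earlier results of these data known. Named genes were the 5 highest of each phase, those 2-fold apart between libraries or compartments, and of the other lists the 2 highest and the 2 lowest ratios of macrophage to epithelial level in AT2-Tracer. Genes named beside these were chosen after their values were seen. Python 3.11.15, numpy 2.4.6, scipy 1.17.1, pandas 2.3.3, scanpy 1.11.5 and matplotlib 3.10.9 were used.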

Additional observations from a re-analysis of the deposited data

Results flagged for a closer look

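The difference between transitional-gated and AT2-gated cells in the share holding G2 and M genes had opposite signs in different lineages. Transitional minus AT2 was 2.47 percentage points in Club-Tracer, -3.40 in BASC-Tracer and -2.53 in AT2-Tracer. With 1 library per lineage the difference between lineages was not tested.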

How the results depend on the processing

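No paired analysis was possible because each lineage had 1 library, and for the same reason no library could be left out. Of 312 alternative values 266 stayed within the counting interval or within 1.5 times the count, and 46 moved. Without thinning, shares of cells holding G2 and M genes were higher than with it: epithelial 10.1%, 11.6% and 8.65%, AT2-gated 17.3%, 20.7% and 14.1%, and transitional-gated 25%, 13.3% and 7.04% in Club-Tracer, BASC-Tracer and AT2-Tracer. Club-gated shares were then 5.49% and 7.69% in Club-Tracer and BASC-Tracer, and macrophage shares 7.56% in BASC-Tracer and 8.997% in AT2-Tracer. Thinned to 3000 UMIs, epithelial shares were 3.23%, 3.48% and 3.49%, and in AT2-Tracer macrophages gave 3.52% and AT2-gated cells 5.39%. With at least 5 UMIs of 3 genes, Club-Tracer gave 1.23% of epithelial and 0.853% of AT2-gated cells, and AT2-Tracer 1.32% of epithelial cells, 1.36% of macrophages and 2.19% of AT2-gated cells. With at least 2 UMIs of 2 genes, Club-Tracer gave 3.07% of epithelial cells, and AT2-Tracer 3.04%, 3.28% and 5.20% of the same 3 populations.

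Leaving out the highest Scrublet scores gave summed epithelial G2 and M levels of 225.8 CPM in Club-Tracer and 222.8 CPM in AT2-Tracer. A gate of 10 times the next list gave 246.2 CPM for S phase and 226.7 CPM for G2 and M genes in AT2-Tracer. Scaling by the median gene gave 2 members lower in AT2-Tracer over Club-Tracer and 1 in BASC-Tracer over Club-Tracer epithelium, 6 higher and 1 lower in AT2-Tracer macrophages, 1 higher in AT2-gated cells, and 0 higher and 14 lower in ciliated-gated cells. A pseudocount of 5 CPM gave 1 lower in AT2-Tracer macrophages, 1 higher in AT2-gated cells, and 1 higher and 4 lower in ciliated-gated cells. A floor of 20 CPM cut the members compared from 30 to 8 in AT2-Tracer and from 25 to 8 in BASC-Tracer macrophages. In ciliated-gated cells it cut them from 32 to 7. It gave 1 higher in AT2-Tracer macrophages, 3 lower in BASC-Tracer macrophages, and 2 higher and 1 lower in ciliated-gated cells. Of all genes, 1202 of 7207, 1694 of 7256, and 3490 and 330 of 7236 were called in the same order. Over all genes, median scaling moved BASC-Tracer over Club-Tracer epithelium from 313 to 159 higher and from 145 to 347 lower, AT2-Tracer over Club-Tracer from 1092 to 574 higher, and ciliated-gated over club-gated from 5024 to 2161 higher and from 545 to 1501 lower. The cause was not tested beyond what each setting changes by construction.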

Other observations

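The ciliated-gated Club-Tracer cells that held G2 and M genes were also high in genes of the deuterosome, the structure that multiplies centrioles in cells growing many cilia. These 8 genes were chosen after the ciliated profile was seen. Deup1, a deuterosome scaffold gene, read 430.3 CPM in the 24 cells, with a UMI in 23 of them, against 32.1 CPM in the 416 other ciliated-gated cells and 10.8 CPM in the 179 other epithelial cells holding G2 and M genes. Ccno read 692.3, 26.6 and 38.1 CPM in the same order, and Mcidas, a coactivator of the multiciliated program, 163.3, 1.19 and 11.2 CPM. Cdc20b read 182.3, 1.39 and 9.47 CPM, Foxn4 75.9, 4.96 and 1.61 CPM, and Plk4, the centriole duplication kinase, 93.7, 8.93 and 20.2 CPM. Myb read 494.9, 196.4 and 29.5 CPM. Gmnc had no UMI in the 24 cells, which allows up to 3.80 CPM, and read 1.59 and 2.25 CPM in the others. That limit lies above both values, so the 3 groups cannot be told apart for Gmnc. The 24 cells were deeper than other ciliated-gated cells, with a median of 34910 against 10426 UMIs, and the part of depth was not tested. In BASC-Tracer only 3 such cells were found, where Deup1 read 894.8 CPM and Ccno 1945 CPM.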
